A study of Mus musculus with 2 samples.

Results

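The genes described here are the nuclear-encoded subunits of the oxidative phosphorylation system, together with a few closely named genes that the same symbol patterns take in. Members were the genes whose symbols begin with Nduf followed by a, b, c, s or v and a digit, with Sdha to Sdhd, Uqcr, Cox4 to Cox8 or Atp5, and that had at least 10 UMIs (unique molecular identifiers, 1 per captured transcript) over both libraries. Of 32287 genes in the count tables, 85 matched by symbol and 82 were members: 37 were assigned by symbol to complex I, 4 to complex II, 8 to complex III, 16 to complex IV and 17 to complex V. The 3 that stayed below the threshold were Cox7b2 with 8 UMIs, and Ndufa13 and Cox8c with 0. Just inside it the lowest member was Cox8b with 405 UMIs, followed by Cox6a2 with 1010. The zero of Ndufa13 needs care, because in the GENCODE annotation of mm10 this gene overlaps another on the same strand.

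The study sorted non-cardiomyocytes from the infarct zone of hearts of p16-2A-CreER;R26-mTmG mice 7 days after myocardial infarction (MI), with tamoxifen given by mouth on day 5. In these mice tamoxifen-activated Cre recombinase, made where the p16 locus is active, switches a membrane reporter from a red to a green fluorescent protein and so marks p16-positive cells and their descendants. The 2 groups were the GFPhi and the GFPlo sorted fractions, both infarcted, both given tamoxifen and both of the same genotype, with 1 droplet single-cell library each. The animals' age, sex and number are not given in the labels used here, and no uninjured or tamoxifen-free library was analysed here. With 1 library per group there is no replicate check and no test between the fractions. Every interval below is an exact 95% interval that covers counting error only.

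Oxidative phosphorylation makes most of the ATP of a resting cell. Complex I (NADH dehydrogenase) and complex II (succinate dehydrogenase) pass electrons to ubiquinone, complex III passes them to cytochrome c, complex IV (cytochrome c oxidase) passes them to oxygen, and complex V (ATP synthase) uses the proton gradient to make ATP. Complexes I, III, IV and V combine nuclear-encoded subunits with subunits encoded by mitochondrial DNA, whereas complex II is wholly nuclear-encoded. Several complex IV subunits exist as alternative isoforms: Cox6a2, Cox7a1 and Cox8b are the striated muscle forms, Cox4i2 is a form induced at low oxygen, and Cox6b2 is best known from testis. Ndufa4, named as a complex I subunit, is a subunit of complex IV, and Ndufa4l2 is its hypoxia-induced relative. Because the symbol patterns decide, Ndufa4 and Ndufa4l2 are counted with complex I here, and Cox7a2l, a factor that joins complexes III and IV into supercomplexes, with complex IV.

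Promoter sequences were looked up for the members because NRF1 (nuclear respiratory factor 1) is the textbook activator of respiratory chain genes. Of the 82 members, 65 had an entry among the RefSeq promoters of GRCm38.p6 (mm10), which span 250 bases before to 50 after each start. The NRF1 motif, searched as the half-site GCGCA directly followed by its reverse complement and so the same on both strands, was present in 5 of the 65 (7.69%), namely Atp5g2, Atp5k, Cox6a1, Ndufa11 and Uqcrc1, beside 0.977% of all 27025 promoters in the table. The core of the hypoxia response element, ACGTG on either strand, was present in 16 of 65 (24.6%) beside 19.7% of all promoters. The 250 bases before the start are printed for 4 members: Cox6a1 and Ndufa11 as examples with the NRF1 motif, and Ndufa1 and Cox6b2 as 2 of the 6 members at least 1.5-fold higher in GFPhi in mesothelial-like cells. Capitals mark a match to either motif, which is a description of the letters and not a binding site.
Cox6a1, chr5:115348959-115349208, minus strand: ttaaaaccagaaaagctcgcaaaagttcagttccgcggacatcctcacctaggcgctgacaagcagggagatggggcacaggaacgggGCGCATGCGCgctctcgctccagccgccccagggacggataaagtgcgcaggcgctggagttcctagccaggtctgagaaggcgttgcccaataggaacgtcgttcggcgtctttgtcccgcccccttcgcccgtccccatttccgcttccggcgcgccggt
Ndufa11, chr17:56717512-56717761, plus strand: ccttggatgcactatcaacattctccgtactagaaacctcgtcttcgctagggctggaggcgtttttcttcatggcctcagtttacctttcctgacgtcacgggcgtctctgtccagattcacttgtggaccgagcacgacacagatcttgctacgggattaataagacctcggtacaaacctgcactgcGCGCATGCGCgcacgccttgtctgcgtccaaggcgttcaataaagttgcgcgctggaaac
Ndufa1, chrX:37191239-37191488, minus strand: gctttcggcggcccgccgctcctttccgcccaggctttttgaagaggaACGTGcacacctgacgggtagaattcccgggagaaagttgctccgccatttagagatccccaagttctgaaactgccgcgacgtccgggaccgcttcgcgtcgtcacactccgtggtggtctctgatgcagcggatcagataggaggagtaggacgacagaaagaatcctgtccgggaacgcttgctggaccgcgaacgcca
Cox6b2, chr7:4753095-4753344, minus strand: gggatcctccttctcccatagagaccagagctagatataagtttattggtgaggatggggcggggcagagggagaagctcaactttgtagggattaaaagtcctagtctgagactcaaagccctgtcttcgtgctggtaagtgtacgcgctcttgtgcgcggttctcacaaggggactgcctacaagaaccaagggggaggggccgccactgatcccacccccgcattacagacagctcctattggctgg
Cox6a1 and Ndufa11 each hold 1 NRF1 match, Ndufa1 holds 1 match to the hypoxia core, and the Cox6b2 window holds neither string.

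The GFPhi library held 10430 barcodes with 91343549 UMIs and the GFPlo library 12344 barcodes with 104855204 UMIs, and 94 barcode sequences occurred in both. After cells with under 300 genes, under 500 UMIs or over 20% mitochondrial UMIs were left out, 10125 GFPhi and 11959 GFPlo cells remained, with medians of 6899 and 7712 UMIs. The fractions differed in composition: 7378 of the GFPhi cells but 95 of the GFPlo cells were macrophage-like, whereas fibroblast-like cells numbered 337 and 6093. Classes were rebuilt here by clustering without the members and the mt- genes among the variable genes, and named from marker lists. Levels are UMI counts scaled to a common total (CPM) summed over the cells of a class in a library. A class needed 50 cells for a level and 100 in each library for a ratio.

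Over the whole libraries, transcripts of the 82 members summed to 22988 CPM in GFPhi and 20321 CPM in GFPlo, a ratio of 1.13 (1.129 to 1.133). The 13 protein-coding genes of mitochondrial DNA (mt- genes) summed to 23399 and 20167 CPM, a ratio of 1.16. By complex, the ratio of summed members was 1.06 for complex I, 1.11 for complex II, 1.16 for complex III, 1.23 for complex IV and 1.11 for complex V. Here and below a gene was measured if it reached 10 CPM in 1 group and 20 UMIs over both, and called higher or lower if it differed by at least 1.5-fold with an interval leaving out 1. Of 80 measured members, 3 were higher and 2 lower in GFPhi, beside 15.6% and 31.2% of all measured genes. The median ratio was 1.07 over members and 0.832 over all measured genes, so the members stood above the typical gene. Relative to that median, a shift of -0.27 on the log2 scale, the summed ratio was 1.36.

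The 3 members called higher were Cox7a1, a muscle-type complex IV subunit, and Ndufb1-ps and Ndufa1, accessory subunits of complex I. Cox7a1 was at 12.99 CPM in GFPhi and 7.82 CPM in GFPlo (ratio 1.66, 1.52 to 1.82). Ndufb1-ps was at 378 and 243 CPM (1.55, 1.53 to 1.58). Ndufa1 was at 339 and 225 CPM (1.51, 1.48 to 1.53). The 2 called lower were the low-oxygen isoforms: Ndufa4l2 was at 13.7 CPM in GFPhi and 86.7 CPM in GFPlo, 6.31-fold lower, and Cox4i2 at 3.62 and 17.6 CPM, 4.86-fold lower. With each cell given the same weight, and calls made on the fold alone, the summed ratio was 1.02 and 0 members were higher, beside 17.1% of genes. With median-of-ratios scaling 17 were higher and 2 lower, beside 21.2% and 21.5% of genes. Ndufa4l2 and Cox4i2 were nearly absent from macrophage-like cells (Ndufa4l2 at 0.367 CPM and Cox4i2 at 0.847 CPM in GFPhi), the class that made up most of the GFPhi library. With the clusters named macrophage-like left out, the summed ratio was 1.18. In that set 4 members were higher (Cox6b2 2.29, Cox7a1 2.24, Ndufb4 1.75 and Ndufa1 1.68), beside 10.9% of genes. The 2 members lower there, beside 8.14% of genes, were again Ndufa4l2 (2.02-fold) and Cox4i2 (1.81-fold). Unnamed clusters 6 and 21 stayed in this set, with 1032 and 204 GFPhi cells and 9200 and 26218 CPM of macrophage markers in GFPhi. Over the set these markers were at 1928 CPM in GFPhi and 56.9 CPM in GFPlo, so macrophage transcripts were not removed.

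The members most abundant within each complex were Ndufa4 and Ndufa2, Sdhb and Sdhc, Uqcrh and Uqcrq, Cox8a and Cox4i1, and Atp5e and Atp5l. Ndufa4 was at 606 CPM in GFPhi and 716 CPM in GFPlo, and Ndufa2, a complex I accessory subunit, at 389 and 316 CPM. Sdhb, the iron-sulfur subunit of complex II, was at 162 and 122 CPM, and the membrane anchor Sdhc at 97.3 and 98.3 CPM. Uqcrh and Uqcrq, small subunits of complex III, were at 532 and 500 CPM and at 410 and 318 CPM. Of this set Ndufa4 and Sdhc were lower in GFPhi and the others higher. Cox8a and Cox4i1, the ubiquitous complex IV isoforms, were at 920 and 712 CPM and at 880 and 649 CPM. Atp5e and Atp5l, small subunits of ATP synthase, were at 889 and 719 CPM and at 709 and 556 CPM.

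Levels of these transcripts also varied across cell classes. A range over many clusters is not directly comparable with the ratio between the fractions. Over the 16 named clusters with at least 50 cells in a library, the summed members ran from 18767 to 27975 CPM in GFPhi, a 1.49-fold range, and from 14011 to 27275 CPM in GFPlo, a 1.95-fold range. Among these clusters T cell-like cells had the highest value in both libraries, with 27975 CPM in GFPhi and 27275 CPM in GFPlo. In GFPhi their interval (27302 to 28660 CPM, 79 cells) held that of endothelial-like cluster 9 (27377 to 28137 CPM), so that rank is not resolved. The T cell-like cells were led by Arpp21, Dntt and Trbc1, and both Cd4 and Cd8a were among their markers. Their summed cycling genes stood at a ratio of 4.51 over the other cells in GFPhi and 7.41 in GFPlo. The part of cycling in their level was not tested. In GFPlo, endothelial-like cells had 24109 CPM, mural-like cells 24811 CPM, mesothelial-like cells 21765 CPM and fibroblast-like cells 19016 CPM. Lowest in GFPlo were neutrophil-like cells with 14011 CPM and B cell-like cells with 17017 CPM. The mt- genes did not follow this order: B cell-like cells had 22216 CPM of mt- transcripts and T cell-like cells 20089 CPM. Across the named clusters the Pearson correlation of the nuclear with the mt- sum was -0.21 in GFPhi and 0.44 in GFPlo (16 clusters each, which share a library and a total of UMIs).

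**Figure D1:**
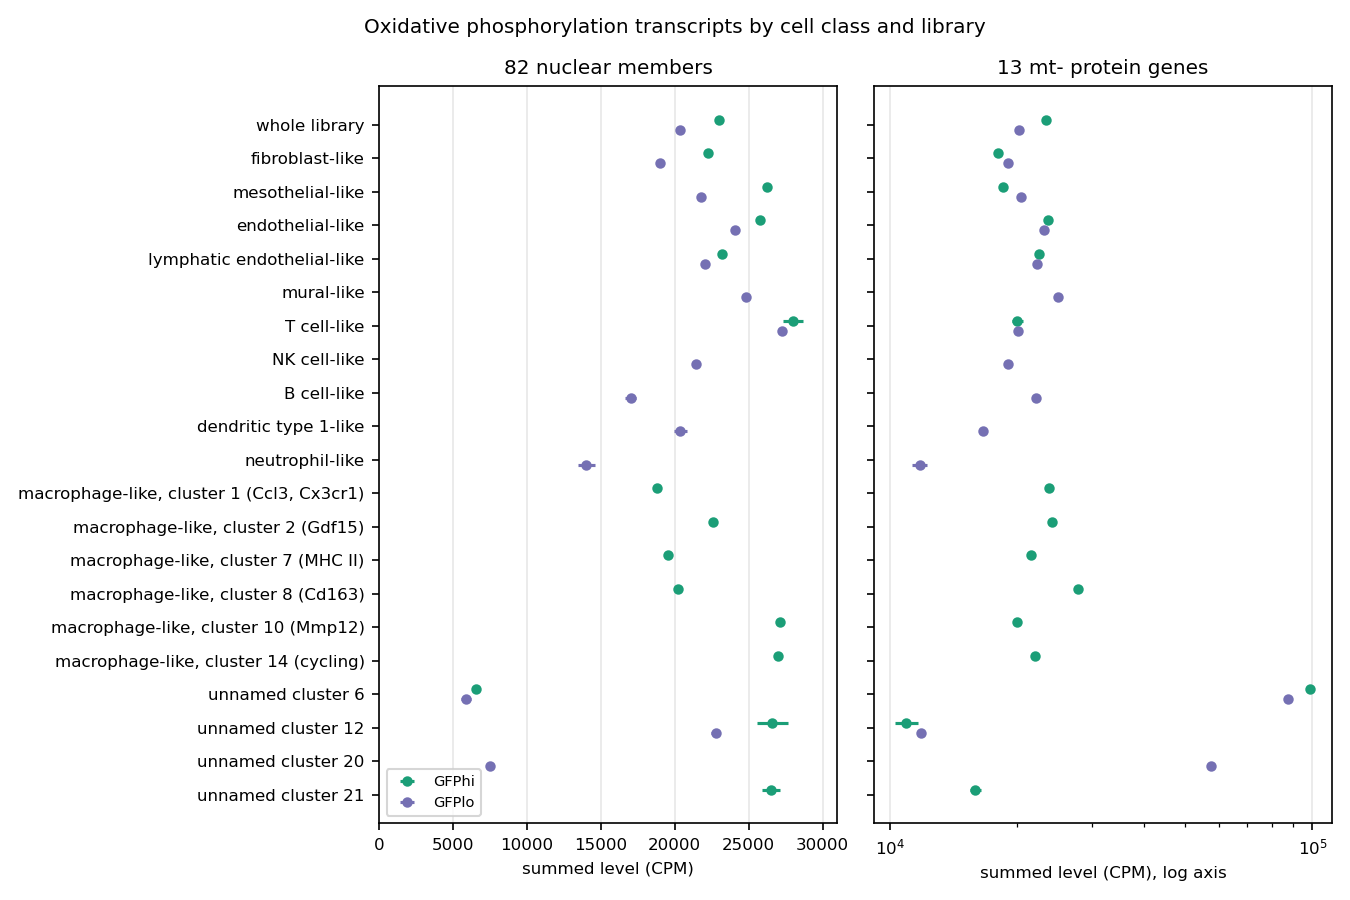
Summed level of the 82 members (left, CPM) and of the 13 mt- genes (right, CPM on a log axis) by cell class and library; points are levels of 1 library and bars exact 95% counting intervals. Named classes span 14011 to 27975 CPM on the left, and unnamed cluster 6 stands apart with 6530 and 5865 CPM of members beside 98817 and 87647 CPM of mt- transcripts.

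Within the GFPlo library, each class was set beside all other cells, and the higher and lower calls read against those of all genes. T cell-like cells had a summed ratio of 1.35 (1.34 to 1.36), with 30 of 79 measured members higher and 2 lower, beside 35.2% and 32.9% of all genes, so the count of members higher was close to the background and that of members lower well under it. Cox5a, a complex IV subunit, was at 834 CPM in T cell-like and 370 CPM in the other cells. Atp5b, the catalytic beta subunit of ATP synthase, was at 735 and 333 CPM. Neutrophil-like cells, which rely on glycolysis, had a summed ratio of 0.689 (0.662 to 0.717), with 0 members higher and 38 lower beside 16.5% and 19.1% of all genes. Among those 38, the peripheral-stalk subunit Atp5o was at 77.6 CPM in neutrophil-like and 228 CPM in the other cells. B cell-like cells had a ratio of 0.837 with 1 of 79 higher and 16 lower, beside 13.5% and 31.2%. There the median ratio was 0.805 over members and 0.782 over all measured genes, so the members were not below the typical gene. The one higher was Ndufa1, at 464 CPM beside 224 CPM. Neutrophil-like cells were also shallow, with a median of 1161 UMIs. They carried 4606 CPM of macrophage markers, with 5 of the 10 at 0, and 4628 CPM of the 8 fibroblast markers. The part of depth or of these markers in the result was not tested.

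Mural-like cells (pericytes and vascular smooth muscle) of GFPlo had 5 members higher and 1 lower, beside 14.4% and 12.8% of all genes, and stood out by the 2 low-oxygen isoforms. Ndufa4l2 was at 627 CPM (583 to 674) in mural-like cells, where 137 of 161 cells had a UMI, and at 80.6 CPM in the other GFPlo cells, a ratio of 7.78. Cox4i2 was at 263 CPM (235 to 294), with a UMI in 102 of 161 cells, beside 14.8 CPM elsewhere, a ratio of 17.8. In these cells Ndufa4l2 made up 54.7% (52.0 to 57.4) of the UMIs of the Ndufa4 pair and Cox4i2 26.1% (23.6 to 28.6) of those of the Cox4 pair. The lower member was Cox6b2, at 17.8 CPM beside 33.4 CPM. The GFPhi library had 23 mural-like cells, too few for a level.

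Fibroblast-like cells came next for both isoforms. There Ndufa4l2 was at 140 CPM in GFPhi and 127 CPM in GFPlo, and Cox4i2 at 26.3 and 22.8 CPM. In mesothelial-like cells Ndufa4l2 was at 14.1 and 21.8 CPM and Cox4i2 at 1.33 and 3.98 CPM. The order from mural-like to fibroblast-like to mesothelial-like cells was the same for both genes, with intervals that do not overlap in GFPlo. Cox6b2 and Cox7a1 had another distribution, with their highest levels in mesothelial-like cells: Cox6b2 at 110 CPM in GFPhi and 51.7 CPM in GFPlo, and Cox7a1 at 28.2 and 14.3 CPM. Cox8b was at 18.2 CPM in lymphatic endothelial-like cells of GFPhi and below 5 CPM in the other classes shown for either library. Cox6a2 was at 592 CPM (506 to 688) in plasmacytoid dendritic-like cells of GFPlo, with a UMI in 25 of 27 cells and 62.1% of the UMIs of the Cox6a pair. It was at 6.17 CPM in macrophage-like cells of GFPhi. That class is under 50 cells and is named here because its Cox6a2 level was singled out after its value was seen.

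**Figure D2:**
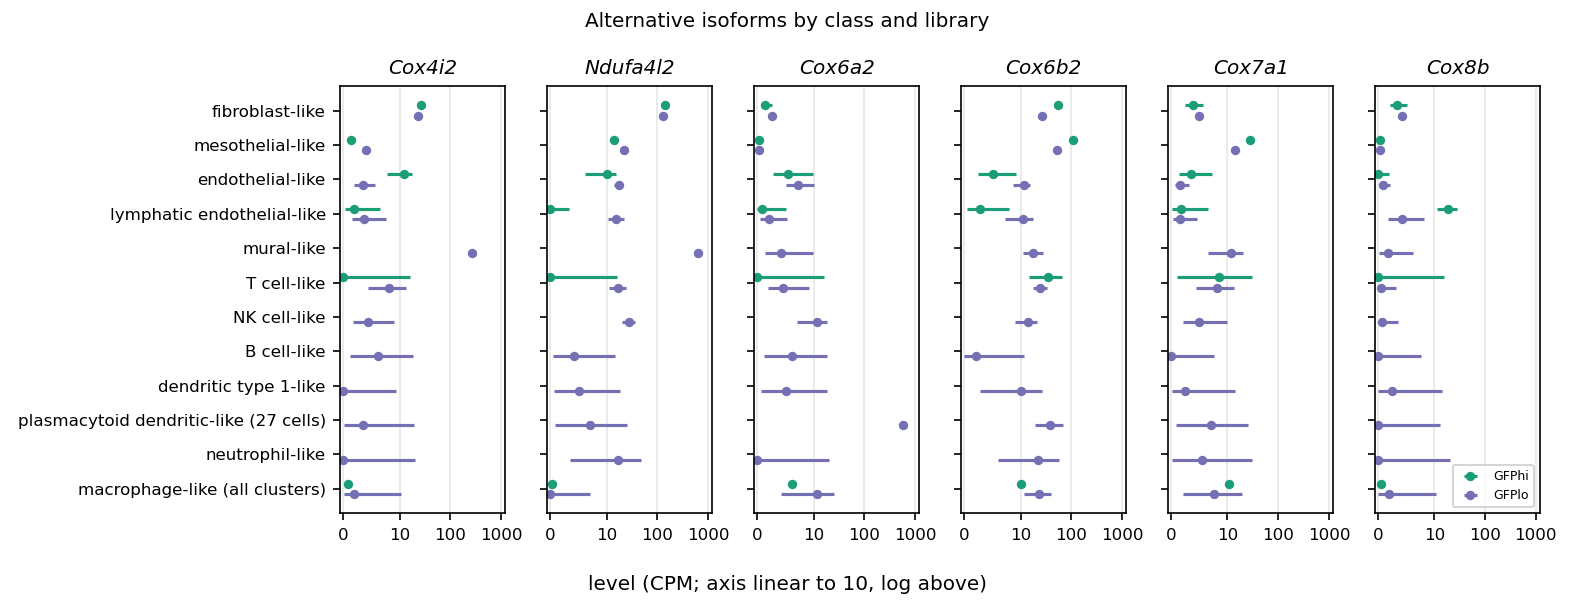
Levels of 6 alternative isoforms (CPM, axis linear to 10 and logarithmic above) by class and library; points are levels of 1 library, bars exact 95% counting intervals, and classes with under 50 cells are left out except the plasmacytoid dendritic-like cells. Ndufa4l2 and Cox4i2 peak in mural-like cells at 627 and 263 CPM, Cox6a2 in plasmacytoid dendritic-like cells at 592 CPM and Cox6b2 in mesothelial-like cells.

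The ubiquitous partners were spread more evenly. Cox4i1 ran from 466 CPM in neutrophil-like cells of GFPlo to 934 CPM in macrophage-like cells of GFPhi. Ndufa4 was high in mesothelial-like cells (1088 CPM in GFPhi and 934 CPM in GFPlo) and low in lymphatic endothelial-like cells (284 and 330 CPM). It also split the blood endothelial-like cells. Cluster 9, led by Npr3 and Vwf, had 1168 CPM of Ndufa4 in GFPhi and 1211 CPM in GFPlo, whereas cluster 15, led by Gpihbp1, Aplnr and Esm1, had 412 and 525 CPM. The 2 clusters thus differed from each other by over 2-fold in each library, more than either differed between libraries. The 3 genes for subunit c of ATP synthase, Atp5g1, Atp5g2 and Atp5g3, were at 325, 434 and 399 CPM in fibroblast-like cells of GFPlo and at 523, 765 and 845 CPM in T cell-like cells.

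The comparison between the fractions was then made within 4 classes. In fibroblast-like cells the members summed to 22275 CPM in 337 GFPhi cells and 19016 CPM in 6093 GFPlo cells, a ratio of 1.17 (1.16 to 1.18). In mesothelial-like cells they summed to 26249 CPM in 542 cells and 21765 CPM in 2119 cells, a ratio of 1.21 (1.201 to 1.211). In endothelial-like cells the sums were 25740 CPM in 289 cells and 24109 CPM in 1173 cells, a ratio of 1.07 (1.06 to 1.08). In lymphatic endothelial-like cells they were 23201 CPM in 103 cells and 22025 CPM in 291 cells, a ratio of 1.05 (1.04 to 1.07). All 4 ratios were above 1. Their order did not hold within single clusters: it was 1.21 in cluster 15 of the endothelial-like and 1.11 in cluster 11 of the fibroblast-like cells.

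Most single members were slightly higher in GFPhi. The ratio was above 1 for 69 of 79 measured members in fibroblast-like, 68 of 79 in mesothelial-like, 59 of 79 in endothelial-like and 53 of 79 in lymphatic endothelial-like cells. Over all measured genes, 34.9%, 34.7%, 48.7% and 48.7% were above 1. The median ratio of the members was 1.14, 1.17, 1.06 and 1.06, beside 0.937, 0.921, 0.992 and 0.991 over all genes. Of 78 members measured in all 4 classes, 41 were above 1 in all 4 and 3 in none: Atp5a1, Ndufa10 and Sdhc. Few members passed 1.5-fold. In fibroblast-like cells 2 were higher and 0 lower (2.94% and 3.33% of all genes), and in mesothelial-like cells 6 were higher and 1 lower (5.48% and 9.27%). In endothelial-like cells 1 was higher and 2 lower (9.27% and 9.62%), and in lymphatic endothelial-like cells 2 were higher and 3 lower (4.66% and 7.11%). The share of members called was above that of all genes for those higher in mesothelial-like cells, and below it for the other 7 counts.

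By complex, the ratio in fibroblast-like cells was 1.15 for complex I, 1.01 for complex II, 1.17 for complex III, 1.21 for complex IV and 1.18 for complex V. In mesothelial-like cells it was 1.23, 0.978, 1.26, 1.24 and 1.15 in the same order. In endothelial-like cells it was 1.02, 1.00, 1.09, 1.11 and 1.08, and in lymphatic endothelial-like cells 1.09, 0.865, 1.14, 1.04 and 1.02. Complex II, with 4 members, had the lowest ratio in each of the 4 classes, although its member Sdhb was above 1 in all 4. In endothelial-like cells the interval of complex II (0.914 to 1.097) overlapped that of complex I (0.9999 to 1.038). Over the whole libraries complex I (1.06) and not complex II (1.11) was lowest. Relative to the median of all genes the complex II ratio was 1.08, 1.06, 1.01 and 0.873.

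**Figure D3:**
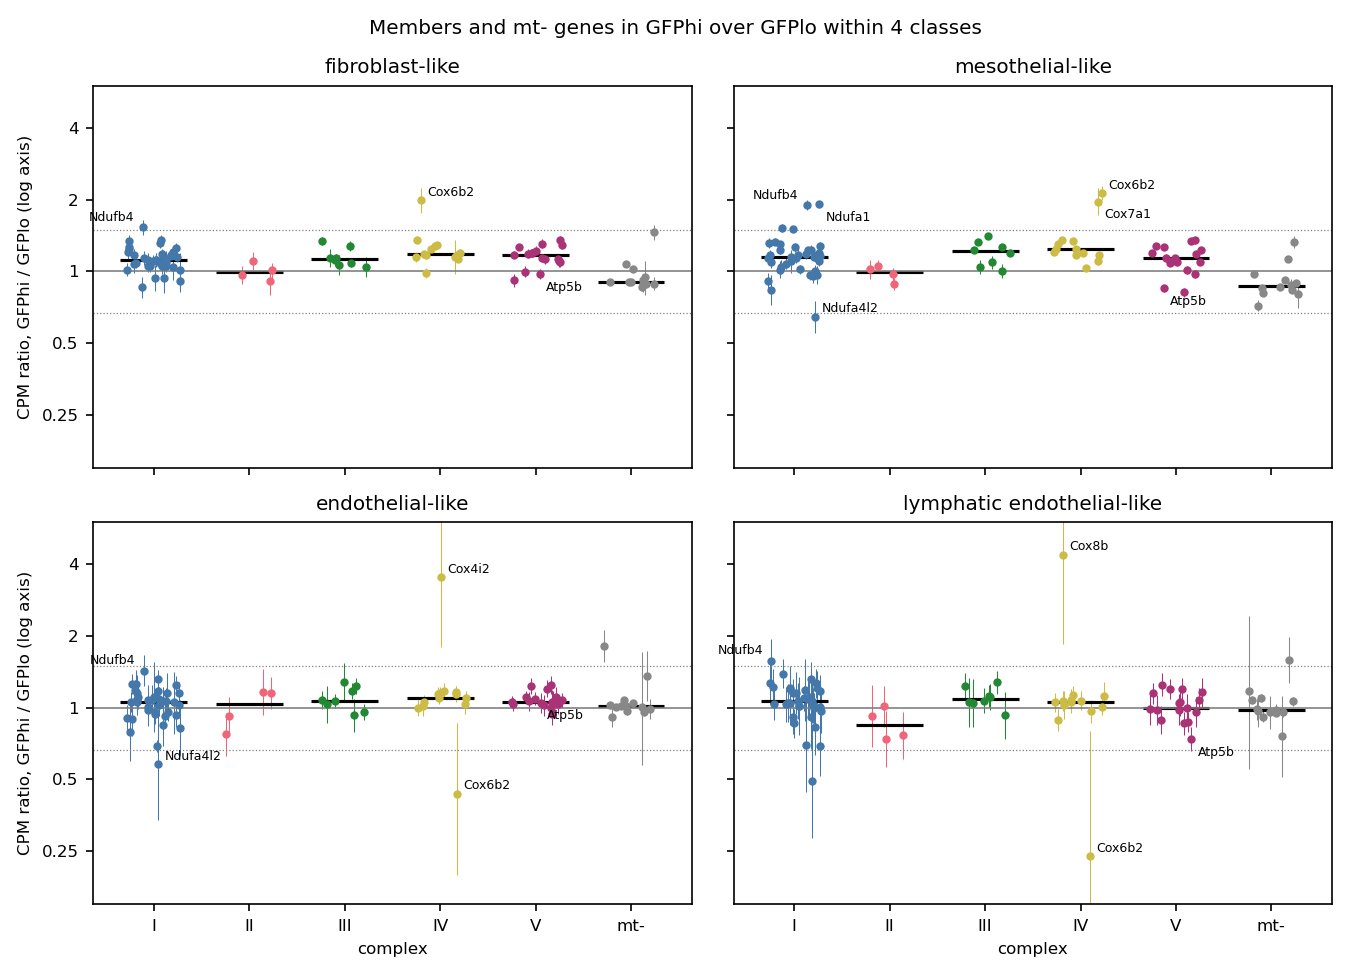
CPM ratio of GFPhi over GFPlo (log axis) for each measured member, by complex, and for the mt- genes, in 4 classes; points are genes, thin bars exact 95% counting intervals (a few run past the axis), black lines medians, and dotted lines mark 1.5-fold either way. Most points of complexes I, III, IV and V lie just above 1 in fibroblast-like and mesothelial-like cells, with Ndufa1, Ndufb4 and Cox6b2 on top; a member with 0 UMIs in GFPhi cannot be drawn.

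Mesothelial-like cells had the most members past 1.5-fold. Cox6b2 was at 110 CPM in GFPhi and 51.7 CPM in GFPlo (ratio 2.13, 1.99 to 2.28). Ndufa1 was at 465 and 243 CPM (1.91, 1.85 to 1.97), and Ndufb4, another accessory subunit of complex I, at 172 and 90.7 CPM (1.90, 1.80 to 2.00). Cox7a1 was at 28.2 and 14.3 CPM (1.97, 1.72 to 2.24), and Ndufb1-ps at 337 and 222 CPM (1.52, 1.47 to 1.57). The remaining member past 1.5-fold was Ndufa6, a complex I accessory subunit. Among cells of similar UMI number Cox7a1 was at a ratio of 1.33, Ndufb1-ps of 1.404 and Ndufa6 of 1.408, so these 3 calls were lost. Ndufa4l2 was lower, at 14.1 and 21.8 CPM (0.647, 0.554 to 0.754). The catalytic subunits of ATP synthase were lower too, short of 1.5-fold: Atp5a1 at 195 and 239 CPM (0.817, 0.783 to 0.852) and Atp5b at 307 and 361 CPM (0.850, 0.822 to 0.879). Sdhc (0.888) and Ndufs1, the largest core subunit of complex I (0.837), were below 1 as well.

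Fibroblast-like cells gave a like picture at smaller size. Cox6b2 was at 53.8 CPM in GFPhi and 27.04 CPM in GFPlo (1.99, 1.77 to 2.24), with a UMI in 100 of 337 and 919 of 6093 cells. Ndufb4 was at 124 and 81.3 CPM (1.53, 1.42 to 1.65). Cox6a1 was at 505 and 371 CPM (1.36, 1.31 to 1.41), Atp5j2, a small membrane subunit of ATP synthase, at 461 and 341 CPM (1.35), and Ndufa1 at 289 and 212 CPM (1.36). Of the members below 1, Ndufa10 (0.857, 0.771 to 0.951) and Atp5a1 (0.918, 0.863 to 0.9751) had intervals leaving out 1.

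In both endothelial classes Ndufb4 and Ndufb1-ps were again among the highest ratios. Ndufb4 was at 142 CPM in GFPhi and 99.1 CPM in GFPlo of endothelial-like cells (1.43, 1.23 to 1.66) and at 161 and 102 CPM in lymphatic endothelial-like cells (1.58, 1.28 to 1.94). Ndufb1-ps was at 389 and 295 CPM (1.32) and at 331 and 239 CPM (1.39). Cox6b2 went the other way, at 5.03 and 11.5 CPM in endothelial-like cells (0.436, 0.198 to 0.865) and at 2.74 and 11.4 CPM in lymphatic endothelial-like cells (0.239, 0.046 to 0.797), on 10 and 3 UMIs in GFPhi. Ndufa4 was at 694 CPM in GFPhi and 1004 CPM in GFPlo of endothelial-like cells (0.691), where cluster 9 held 156 of 289 GFPhi but 881 of 1173 GFPlo cells. Within cluster 9 Ndufa4 was at 1168 and 1211 CPM. Cox4i2 had the highest endothelial ratio (3.53, 1.80 to 7.11), but its 24 GFPhi UMIs came from 5 cells and 15 of them from 1 cell.

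In lymphatic endothelial-like cells Cox8b was at 18.2 and 4.16 CPM (4.39, 1.85 to 11.5), from 20 and 8 UMIs in 13 and 6 cells. Ndufa4l2 had 0 UMIs in GFPhi, which allows up to 3.37 CPM by its interval, and 30 UMIs, or 15.6 CPM, in GFPlo. Ndufs1 was at 18.2 and 36.9 CPM (0.494, 0.285 to 0.822), and Atp5b at 399 and 539 CPM (0.740, 0.660 to 0.828). Of the 5 members called in this class, Ndufb4 had 176 UMIs in GFPhi and the other 4 had 20 or fewer. Among cells of similar UMI number Ndufb4 was the 1 member higher in either endothelial class (1.77 and 1.65), beside 4.56% and 3.4% of genes. Those sets held 102 and 56 GFPhi cells. There, neither Cox6b2 nor Cox4i2, Cox8b, Ndufa4l2 or Ndufs1 was called. The 8 fibroblast markers summed to 692 CPM in GFPhi and 3933 CPM in GFPlo of lymphatic endothelial-like cells. In endothelial-like cells they summed to 1673 and 5342 CPM, beside 27834 CPM in fibroblast-like cells of GFPlo. The part of fibroblast transcripts in the Ndufa4l2 and Cox6b2 ratios was not tested.

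The 12 core or catalytic subunits, a group chosen after values had been seen, had median ratios of 1.01 in fibroblast-like, 1.02 in mesothelial-like, 1.06 in endothelial-like and 0.944 in lymphatic endothelial-like cells. The other members had medians of 1.16, 1.18, 1.06 and 1.07. The small accessory subunits have short transcripts, and the core subunits longer ones, with median lengths of 625 and 1136 bases. Across members, the Spearman correlation of the ratio with transcript length was -0.55, -0.66, -0.20 and -0.37 in the same order of classes, beside -0.28, -0.16, -0.05 and 0.02 across all measured genes. These are descriptions across genes of the same 2 libraries, and genes are not replicates. The part of transcript length in the ratios was not tested.

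The mt- genes did not share the members' ratios. Their sum was at 18060 CPM in GFPhi and 19023 CPM in GFPlo of fibroblast-like cells (0.949, 0.944 to 0.955) and at 18555 and 20452 CPM in mesothelial-like cells (0.907, 0.903 to 0.911). It was at 23670 and 23185 CPM in endothelial-like cells (1.02) and at 22547 and 22280 CPM in lymphatic endothelial-like cells (1.01). The endothelial value pools 2 clusters of opposite direction, with a ratio of 1.10 in cluster 9 and 0.912 in cluster 15. Relative to the median of all genes the fibroblast ratio turned to 1.01 and the mesothelial one was 0.985, so the lower mt- sum depends on the scaling. The gap to the nuclear members does not, because the scaling moves both alike. In mesothelial-like cells mt-Atp6 had a ratio of 0.81 and mt-Co3 of 0.83, both below 1, whereas mt-Cytb had 1.13. mt-Nd3, a short complex I subunit gene, was above 1 in all 4 classes, with 1.46, 1.33, 1.82 and 1.58 in the order used above.

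Several other measures moved with these ratios. GFPhi cells of each class were deeper, with medians of 17030 and 8389 UMIs in fibroblast-like, 28376.5 and 14001 in mesothelial-like, 4651 and 3222 in endothelial-like and 7973 and 4719 in lymphatic endothelial-like cells. Among cells of similar UMI number the summed ratio was 1.12, 1.09, 1.07 and 0.994, and the mt- ratio 0.983, 1.06, 1.14 and 0.924. The lymphatic endothelial ratio therefore lost its direction, and in mesothelial-like cells the nuclear and mt- ratios came close together. In mesothelial-like cells of similar UMI number 3 members were higher in place of 6, beside 8.02% of genes: Ndufa1 (1.71), Ndufb4 (1.69) and Cox6b2 (1.90). Above 1.5 as well were Ndufb4 (1.53) and Cox6b2 (2.03) in fibroblast-like cells.

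The GFPhi cells of these classes also carried macrophage transcripts: the 10 macrophage markers summed to 1380 and 37.1 CPM in fibroblast-like, 828 and 46.7 CPM in mesothelial-like, 2039 and 67.1 CPM in endothelial-like and 2837 and 167 CPM in lymphatic endothelial-like cells, beside 28087 CPM in macrophage-like cells of GFPhi. All 10 markers were detected in each of the 4 classes of GFPhi, and in GFPlo 1 was at 0 in endothelial-like and 4 in lymphatic endothelial-like cells. With a macrophage profile of matching size subtracted, the summed ratios were 1.17, 1.21, 1.08 and 1.05. That profile held 22534 CPM of members, beside 22275 to 26249 CPM in the 4 classes of GFPhi. The share subtracted was 4.78%, 2.78%, 7.02% and 9.51%. The subtraction could therefore move the summed ratios little, so the part of macrophage transcripts in them was not tested by it. The 8 cardiomyocyte markers summed to between 4.60 and 16.1 CPM in the 4 classes and both libraries. Cycling genes were lower in GFPhi for 11 of 13 in mesothelial-like and 12 of 13 in lymphatic endothelial-like cells and higher for 13 of 13 in endothelial-like cells. Ribosomal protein genes, another set of short and abundant transcripts, had median ratios of 1.12, 1.01, 1.04 and 0.959. The part of cycling in the members' ratios was not tested.

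The largest cluster of a class was not always the same in the 2 libraries. In fibroblast-like cells cluster 11 held 116 of 337 GFPhi cells and cluster 0 held 2449 of 6093 GFPlo cells, and in mesothelial-like cells cluster 13 held 308 of 542 and cluster 4 held 1370 of 2119. Within single clusters the summed ratio was 1.11 in cluster 11, with 3 members higher and 0 lower beside 5.41% and 4.09% of genes. It was 1.23 in cluster 4 (5 higher and 0 lower, beside 2.34% and 5.35%) and 1.13 in cluster 13 (3 higher and 0 lower, beside 2.27% and 4.07%). Cox6b2 was at 125 CPM in GFPhi and 62.1 CPM in GFPlo of cluster 13. In the endothelial-like clusters the summed ratio was 1.08 in cluster 9 (1 higher and 4 lower, beside 2.99% and 5.17%) and 1.21 in cluster 15 (2 higher and 0 lower, beside 5.34% and 9.17%). The ratios within these 5 clusters were thus above 1, smaller than in the whole class in clusters 11 and 13 and larger in clusters 4 and 15.

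Other mitochondrial and metabolic gene lists were measured beside the members. In fibroblast-like cells 0 of 35 measured assembly factors were called in either direction (median ratio 1.09), 0 of 18 TCA cycle genes (0.942), and 2 of 14 fatty acid oxidation genes, Cpt2 and Acadl, were lower (0.871). In mesothelial-like cells 1 of 34 assembly factors was higher, Cox20 (median 1.03), 0 of 17 TCA cycle genes were called (0.927), and of 14 fatty acid oxidation genes Acadm was higher and Acadl lower (0.989). None of the measured regulators of mitochondrial biogenesis was called in the 4 classes, with 7, 8, 6 and 9 measured. Ucp2, an inner membrane carrier, was higher in fibroblast-like, mesothelial-like and lymphatic endothelial-like cells. The GFPhi cells of these classes also carried more macrophage transcripts, and the part of those in the Ucp2 ratios was not tested. In endothelial-like cells 3 of 16 glycolysis genes were higher (Slc2a1, Pgk1 and Pkm) and 2 lower (Hk2 and Pfkm), with a median of 1.19. The TCA cycle genes, which feed electrons to the chain, had lower medians than the members in each of the 4 classes. In fibroblast-like and mesothelial-like cells those medians lay close to the 0.937 and 0.921 of all measured genes. There the TCA cycle genes thus stood near the typical gene. Their summed ratios were 0.920, 1.01, 0.947 and 0.883 in the order of classes used above.

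Macrophage-like cells, the bulk of GFPhi, were not compared with the 95 of GFPlo, which are under the 100 cells needed for a ratio. Within GFPhi, the 6 clusters were each set beside the other 5. Cluster 10, led by Mmp12, Gpnmb and Spp1 (1010 cells), had the highest members' sum, 27149 CPM, a ratio of 1.27 (1.27 to 1.28). Of its 78 measured members 13 were higher and 2 lower, beside 6.41% and 26.8% of genes, so members higher were more frequent than genes in general. Cluster 14, the cycling cluster (430 cells), had 26959 CPM and a ratio of 1.22, with 7 higher and 1 lower beside 19.2% and 7.89%. Cluster 2, led by Gdf15 (1778 cells), had 22572 CPM and a ratio of 1.00, with 0 called either way beside 1.51% and 13%.

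Cluster 1, led by Fcrls, Ccl3 and Cx3cr1 (1925 cells), had the lowest sum, 18767 CPM, a ratio of 0.800 (0.797 to 0.804), with 0 higher and 7 lower beside 7.97% and 6.80%. Cluster 7, with MHC class II genes and Ccr2 (1138 cells), had 19550 CPM and a ratio of 0.851, with 0 higher and 3 lower beside 5.44% and 10.1%. Cluster 8, led by Cd163, Timd4 and Folr2, markers of resident macrophages (1097 cells), had 20203 CPM and a ratio of 0.883, with 0 called either way beside 27.9% and 5.66%. The mt- genes ran in another order: cluster 8 had the most, 27920 CPM, and cluster 10 the least, 19990 CPM. Nuclear over mt- transcripts was therefore 0.724 in cluster 8 and 1.36 in cluster 10. Depth differed as well, with medians of 6042, 6431.5, 6526 and 7599 UMIs in clusters 1, 7, 8 and 2. Clusters 10 and 14, the 2 with the highest members' sums, had medians of 12498.5 and 13921 UMIs. The part of depth in the ratios between these clusters was not tested.

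**Figure D4:**
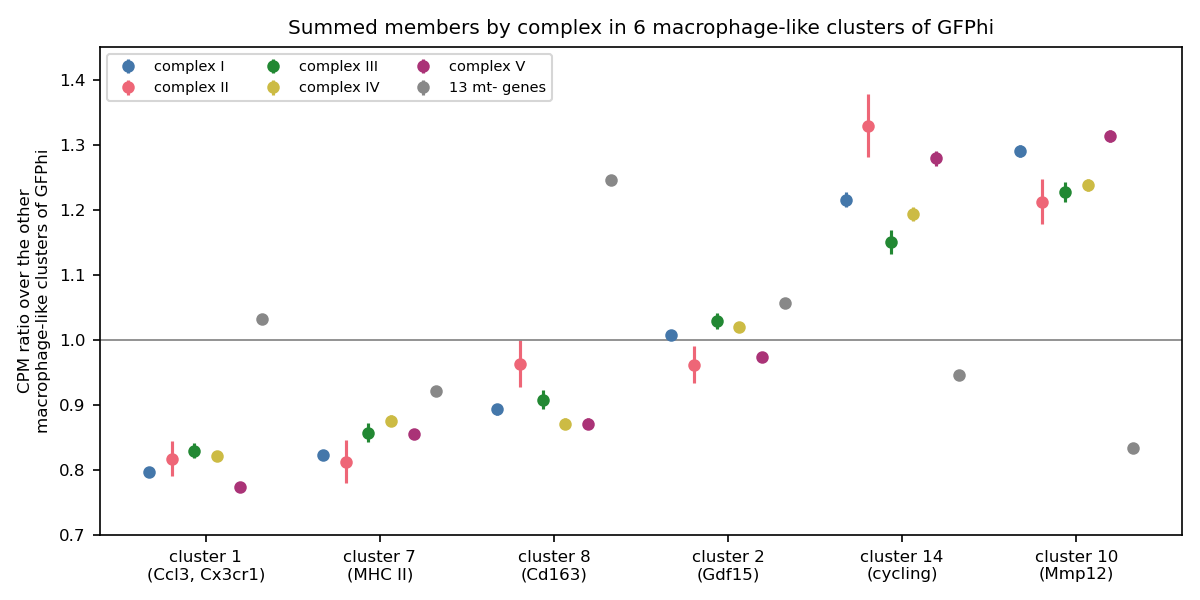
CPM ratio of each macrophage-like cluster of GFPhi over the other macrophage-like clusters, for the members of each complex and for the mt- genes; points are summed ratios within 1 library and bars exact 95% counting intervals. Members of all 5 complexes lie above 1 in clusters 14 and 10 and below 1 in clusters 1, 7 and 8, whereas the mt- ratio is 1.246 in cluster 8 and 0.834 in cluster 10.

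Among the members, Atp5g1, a gene for subunit c of ATP synthase, was at 539 CPM in cluster 10 and 293 CPM in the other macrophage-like clusters (1.84, 1.79 to 1.90). Ndufb6 was at 176 and 98.8 CPM (1.78), Ndufc1 at 326 and 192 CPM (1.70), Ndufa1 at 469 and 283 CPM (1.66) and the complex III subunit Uqcrq at 572 and 366 CPM (1.56). In cluster 14 the largest ratios were those of Atp5o (295 and 173 CPM, 1.70), Atp5g3 (569 and 356 CPM, 1.60) and Atp5b (396 and 250 CPM, 1.58). In cluster 1 Cox7a1 was at 5.48 and 12.3 CPM (0.447), Ndufb6 at 71.8 and 126 CPM (0.572) and Ndufa1 at 211 and 349 CPM (0.606). Ndufb6 and Ndufa1 were thus high in cluster 10 and low in cluster 1.

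Cox7a2l ran against the other members. It was at 455 CPM in cluster 1 and 333 CPM in the other clusters (1.36, 1.32 to 1.41) and at 446 and 344 CPM in cluster 7 (1.30). In cluster 10 it was at 236 and 389 CPM (0.607, 0.584 to 0.630) and in cluster 14 at 226 and 372 CPM (0.609). Uqcrh and Ndufa6 had the same order with smaller ratios: Uqcrh was 1.08 in cluster 1, 0.857 in cluster 10 and 0.807 in cluster 14, and Ndufa6 was 1.10, 0.870 and 0.761.

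4 clusters stayed unnamed, since their cells held few UMIs or had too few markers. In cluster 6 the members summed to 6530 CPM in GFPhi and 5865 CPM in GFPlo, and the mt- genes to 98817 and 87647 CPM. In cluster 20 of GFPlo they summed to 7511 and 57496 CPM. Clusters 12 and 21 were the reverse, with 26581 CPM of members beside 10927 CPM of mt- transcripts in cluster 12 of GFPhi and 26517 beside 15916 CPM in cluster 21 of GFPhi. With these clusters included, the Pearson correlation of the nuclear with the mt- sum was -0.82 over 19 clusters in GFPhi and -0.75 in GFPlo, again as a description. The Spearman correlation over the same clusters was -0.34 and -0.14, so the ranks showed no strong inverse relation.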

How the data were processed

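The deposited files held 1 matrix of UMI counts per gene and cell for each sorted fraction, made by the authors from a SeekOne droplet 3′ kit (per the labels' protocols) on the mm10 build (per the submitters' processing notes). The aligner and the counting tool: not given in the sources used here. Cells were filtered at 300 genes, 500 UMIs and 20% mt- UMIs. They were clustered with scanpy 1.11.5 and Leiden 0.10.2 (2000 variable genes, 30 components, 15 neighbours, resolution 1, scaled to 10000 UMIs), leaving out members, mt- genes and the pathway lists, and named when 3 markers were at least 2-fold higher and detected in 10% of cells. No doublets were removed. UMIs were summed per class and library, and CPM ratios given with exact 95% intervals (scipy 1.17.1), calling across all genes at 1.5-fold. The calling was checked on simulated counts. Members and lists were chosen with earlier results of these data known. Named with values were the isoform families, the 2 most abundant members of each complex and the 5 members with the largest ratio either way in a comparison. Gene positions came from GENCODE vM21. Alternatives changed the scaling, minimum level, fold, mt- limit, cell weighting and clustering.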

Additional observations from a re-analysis of the deposited data

Results flagged for a closer look

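Cox6b2 differed in direction between classes. Its ratio of GFPhi over GFPlo was 1.99 in fibroblast-like and 2.13 in mesothelial-like cells, but 0.436 in endothelial-like and 0.239 in lymphatic endothelial-like cells. With 1 library per fraction the difference between classes was not tested, and the last pair of values rests on 10 and 3 GFPhi UMIs.

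The summed mt- genes also differed in direction, with a ratio of 1.02 in endothelial-like cells, 0.949 in fibroblast-like cells and 0.907 in mesothelial-like cells. The endothelial value pools cluster 9 with a ratio of 1.10 and cluster 15 with 0.912, which made up different shares of the class in the 2 libraries. This difference was not tested either, and relative to the median of all genes the fibroblast value was 1.01.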

How the results depend on the processing

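No paired analysis was possible because each fraction has 1 library. For the same reason no run without a library exists. Depth limits members with few UMIs, such as Cox6b2 with 10 and 3 GFPhi UMIs in the 2 endothelial classes. Of 176 recomputed values 123 kept their place, 50 moved and 3 reversed. The cause was not tested for any of these.

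With a lower fold threshold, members higher and lower numbered 17 and 4 over the whole libraries (beside 21.1% and 46.4% of genes at that threshold), 6 and 4 in endothelial-like (13.4% and 14.3%) and 7 and 7 in lymphatic endothelial-like cells (7.34% and 9.33%), with 16 higher in fibroblast-like (6.60%) and 21 in mesothelial-like cells (11.4%). With a minimum of 50 CPM, 1 member was lower over the whole libraries (beside 29.9% of genes) and 0 in mesothelial-like cells (7.69%). Endothelial-like cells then had 0 higher and 0 lower (8.07% and 8.21%), and lymphatic endothelial-like cells 1 and 0 (4.68% and 5.66%). With no minimum 2 were lower in mesothelial-like cells (12.7% of genes). Median-of-ratios scaling gave 17 higher (beside 21.2% of genes) and a summed ratio of 1.36 over the whole libraries. The ratio was 1.251 in fibroblast-like cells, and 1.31 with 0 lower (6.67%) in mesothelial-like cells. Under this scaling 2 named classes of GFPhi were above their other cells in place of 4. Without mt- and ribosomal protein UMIs the ratio was 1.13 over the whole libraries and 1.204 in fibroblast-like cells, and the levels were 28785 CPM in GFPhi and 25383 CPM in GFPlo.

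With at most 10% mt- UMIs the levels were 23172 and 20374 CPM with a ratio of 1.14, and nuclear over mt- transcripts was 1.05 in GFPhi, reversed from 0.982, and 1.03 in GFPlo. With at least 2000 UMIs per cell it was 1.04, again reversed, and 1.02. Endothelial-like cells then had a summed ratio of 1.08 with 1 member lower (10.2% of genes). With each cell weighted alike and calls on the fold alone, 0 members were higher over the whole libraries (17.1% of genes, ratio 1.02), 1 in fibroblast-like (2.88%) and 2 in endothelial-like cells (10.9%), 5 were lower in lymphatic endothelial-like cells (13.9%, ratio 1.08), and the mesothelial ratio was 1.199. Without the clusters named macrophage-like the ratio was 1.18.

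Leiden resolution 0.5 gave 0 lower in mesothelial-like cells (6.97% of genes). Keeping members and mt- genes in the clustering gave 3 higher (3.17%), 0 lower (5.75%) and a ratio of 1.15 there. Settings chosen after seeing the data were cells of similar UMI number, the 2000 UMI minimum within classes and the subtracted macrophage profile. Cells of similar UMI number gave 1.12 in fibroblast-like cells (70 of GFPhi) and 1.09 with 3 higher (8.02% of genes) in mesothelial-like cells. In lymphatic endothelial-like cells they gave 0.994, reversed, with 1 higher (3.4%), on 56 GFPhi cells. Subtracting a macrophage profile gave 1.21 in mesothelial-like cells and 1 lower in endothelial-like cells (9.69% of genes).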

Other observations

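mt-Nd3 stood apart from the other mt- genes, with a ratio of GFPhi over GFPlo of 1.46 in fibroblast-like, 1.33 in mesothelial-like, 1.82 in endothelial-like and 1.58 in lymphatic endothelial-like cells. In the same order mt-Co3 had 0.88, 0.83, 0.97 and 0.96. mt-Nd3 was noticed after its values were seen.

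Cox6a2 was unevenly spread over the cells of unnamed cluster 12. Its 64 UMIs in GFPlo came from 13 of 666 cells and its 17 UMIs in GFPhi from 2 of 58 cells, of which 1 held 15. In that cluster the cardiomyocyte markers summed to 251 CPM in GFPlo and 323 CPM in GFPhi; their part in the Cox6a2 level was not tested.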
